A study of Homo sapiens with 12 samples.

Results

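The peaks described here are the sites inside gene bodies at which a Notch3 antibody enriched chromatin from cells carrying the intracellular domain of Notch3 (N3ICD). A gene-body peak had its summit within the span of a protein-coding gene on chromosomes 1 to 22 and X, and more than 1 kb from every protein-coding gene end. Of the 8113 peaks of the 3 N3ICD libraries, 2830 met this rule, with 738 in library A, 956 in B and 1136 in C. The same rule kept 1398 of the 4470 peaks of the 3 GFP libraries, and the series holds 12583 peaks in all. The cells were neural crest cells differentiated from H9 cells, an established line of human embryonic stem cells. One group carried an N3ICD-GFP lentivirus, the other a lentivirus for GFP alone, and both were collected 6 days after transduction. The labels give the cell type as mural for the N3ICD cells and as neural crest for the GFP cells. Each group had 3 ChIP libraries from separate differentiations, named A, B and C, and where 3 values are given for a group below they stand in that order. The 6 inputs were not analysed here. The promoter of the vectors and the share of cells transduced are not given in the sources used here, and expression of cell type markers was not measured. The N3ICD virus carries part of the coding sequence of NOTCH3 itself, and the sources used here do not say how reads from the vector were treated.

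Notch receptors are cut after they bind a ligand on a neighbouring cell, and the freed intracellular domain moves to the nucleus. It has no DNA-binding domain of its own and reaches DNA through RBPJ, a protein that recognises a short motif with the core TGGGAA, together with Mastermind coactivators. Without the intracellular domain, RBPJ can hold corepressors at the same sites. Notch3 is the receptor best known from pericytes and vascular smooth muscle, the mural cells of vessels, and HES and HEY genes are its classical targets. Many genes have several transcription starts, so a promoter can lie far inside the span of a gene.

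The sequences below show that last arrangement. They are the promoters of internal transcription starts of 8 host genes (the genes whose span contains a peak), each at a gene-body region with peaks in at least 2 N3ICD libraries and no GFP library. Each line gives the 250 bases before the start, on the strand of the gene, from the RefSeq table on GRCh38.p14, and capitals mark the RBPJ core TGGGAA or its reverse complement TTCCCA.
SH3KBP1: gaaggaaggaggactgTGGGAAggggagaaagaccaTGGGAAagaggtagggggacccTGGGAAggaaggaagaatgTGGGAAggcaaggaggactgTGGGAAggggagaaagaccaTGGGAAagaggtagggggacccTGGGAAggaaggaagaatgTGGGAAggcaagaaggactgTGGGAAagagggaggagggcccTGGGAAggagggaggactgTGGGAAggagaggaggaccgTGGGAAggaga
DENND2B: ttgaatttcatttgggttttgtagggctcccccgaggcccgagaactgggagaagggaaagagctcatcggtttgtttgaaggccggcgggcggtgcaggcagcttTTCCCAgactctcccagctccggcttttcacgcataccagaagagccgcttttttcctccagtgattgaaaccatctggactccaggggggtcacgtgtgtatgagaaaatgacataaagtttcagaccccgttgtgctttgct
LZTS2: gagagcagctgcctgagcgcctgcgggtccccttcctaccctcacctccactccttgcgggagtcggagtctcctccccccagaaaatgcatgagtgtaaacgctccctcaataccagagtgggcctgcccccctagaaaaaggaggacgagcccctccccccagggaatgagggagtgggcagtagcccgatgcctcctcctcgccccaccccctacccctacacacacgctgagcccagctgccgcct
FOCAD: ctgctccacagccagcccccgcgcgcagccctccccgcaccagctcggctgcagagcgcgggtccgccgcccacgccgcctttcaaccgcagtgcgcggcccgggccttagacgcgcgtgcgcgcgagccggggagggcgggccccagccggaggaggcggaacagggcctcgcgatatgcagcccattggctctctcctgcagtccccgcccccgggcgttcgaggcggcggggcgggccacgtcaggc
DNPEP: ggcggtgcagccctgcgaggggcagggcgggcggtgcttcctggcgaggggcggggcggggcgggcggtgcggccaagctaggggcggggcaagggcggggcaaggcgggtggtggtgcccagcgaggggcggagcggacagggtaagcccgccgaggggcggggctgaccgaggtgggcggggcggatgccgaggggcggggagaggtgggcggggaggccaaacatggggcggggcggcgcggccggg
GATAD2A: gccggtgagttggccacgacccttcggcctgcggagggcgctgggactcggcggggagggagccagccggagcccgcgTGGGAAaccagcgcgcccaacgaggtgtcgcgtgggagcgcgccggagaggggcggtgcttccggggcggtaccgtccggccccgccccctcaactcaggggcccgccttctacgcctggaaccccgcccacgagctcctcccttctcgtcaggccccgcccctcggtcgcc
AADAT: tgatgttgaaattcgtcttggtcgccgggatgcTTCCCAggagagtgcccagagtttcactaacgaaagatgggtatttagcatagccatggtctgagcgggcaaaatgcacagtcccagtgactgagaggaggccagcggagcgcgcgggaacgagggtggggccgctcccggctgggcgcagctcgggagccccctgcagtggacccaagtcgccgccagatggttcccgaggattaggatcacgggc
KLF12: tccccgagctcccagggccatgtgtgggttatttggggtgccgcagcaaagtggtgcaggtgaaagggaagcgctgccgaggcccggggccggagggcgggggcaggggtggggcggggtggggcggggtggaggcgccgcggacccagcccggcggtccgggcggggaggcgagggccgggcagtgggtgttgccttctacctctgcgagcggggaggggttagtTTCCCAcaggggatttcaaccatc

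The SH3KBP1 promoter lies at chrX:19833152-19833401 on the minus strand, with the nearest summit of the region 53 bp from the start, and holds 12 copies of the core, all in 1 orientation. DENND2B is at chr11:8871370-8871619 (minus strand, summit at 102 bp), GATAD2A at chr19:19405425-19405674 (plus strand, 125 bp), AADAT at chr4:170090241-170090490 (minus strand, 1 bp) and KLF12 at chr13:74134405-74134654 (minus strand, 86 bp), with 1 copy each. The LZTS2 promoter at chr10:100998029-100998278 (plus strand, 239 bp), that of FOCAD at chr9:20684009-20684258 (plus strand, 179 bp) and that of DNPEP at chr2:219387913-219388162 (minus strand, 122 bp) hold none. The bases printed for FOCAD and DNPEP lie just outside their regions, which are on the other side of the start. The printed cores of DENND2B and AADAT also lie outside their regions, which end at chr11:8871414 and chr4:170090365. Base composition of the printed promoters was wide. GC content was between 52.8 and 81.2%, against a median of 58.4% over the 34961 promoter windows of the RefSeq table. The number of CpG dinucleotides was between 1 and 35, against a median of 11. The core, searched on both strands, was found in 7285 of those 34961 windows (20.8%), and the longer GTGGGAA in 1899 (5.43%); every GTGGGAA also counts as a core. A window was taken as lying under a peak when the peak overlapped the bases from 250 before to 50 after the start. The core was counted anywhere in the 250 bases before the start, so it can lie outside the peak. Under the N3ICD gene-body peaks of any library lay 186 windows, of which 39 held the core (21.0%), a share close to that of all windows. Under the regions found in at least 2 N3ICD libraries lay 25 windows, of which 9 held the core (36%) and 4 the longer motif. These windows are not separate sites. They lay at 18 regions, and 2 of the 9 were overlapping windows of SH3KBP1. Under the GFP gene-body peaks lay 3 windows, of which 1 held the core. The copy number at SH3KBP1 stood apart, but the bases before that start are a tandem repeat, in which stretches with several cores recur unchanged. Whether mapping of reads within the repeat affects the peak was not tested. The 2 overlapping windows of that start held 13 and 12 copies, the highest numbers among all 34961 windows, and 18 windows held 4 or more. These 2 windows, which share 1 site, were the only ones among the 18 under an N3ICD gene-body peak. By the rule, windows at the outer start of a protein-coding gene can hardly lie under such a peak. Little can therefore be read from their absence. A match of letters is not a measured site of RBPJ.

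Every N3ICD library had more gene-body peaks than every GFP library. The libraries held 738, 956 and 1136 such peaks with N3ICD, against 344, 528 and 526 with GFP. The mean was 943 ± 199 peaks with N3ICD and 466 ± 106 with GFP (SD, n = 3 in each group); the ratio of 2.02 had a two-sided exact permutation p of 0.1, the smallest that 3 libraries against 3 can give. When every library gave the same number of its most significant peaks, a mean of 394 peaks per N3ICD library and 375 per GFP library lay in gene bodies (exact permutation p = 0.6). Equal list lengths remove most of a difference in number by design, and the count then follows the share in gene bodies. This setting therefore cannot show where the difference in number came from. The share of a library's peaks that lay in gene bodies was 33.2, 38.4 and 33.5% with N3ICD, against 28.5, 34.5 and 30.8% with GFP, and the groups overlapped (exact permutation p = 0.3). Both sat below the 40.2% of bases on these chromosomes that meet the same rule. Of 12 measures compared between the groups in all, 7 separated them without overlap, each at an exact permutation p of 0.1 and a Benjamini-Hochberg value of 0.171, so none can pass 0.05. No read totals are given in the sources used here. The genome-wide background pileup implied by the deposited values, a relative measure of depth, was 1.27, 1.58 and 0.926 stacked fragments with N3ICD, against 1.46, 1.21 and 1.90 with GFP.

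Along the gene, the excess of N3ICD peaks was greatest close to the start. Between 1 and 5 kb from the start of the host there were 0.974, 2.36 and 2.55 peaks per Mb with N3ICD, against 0.195, 0.253 and 0.273 in the GFP libraries, a ratio of 8.16 (exact permutation p = 0.1). The ratio was 3.15 at 5 to 20 kb from the start, 1.90 at 20 to 100 kb and 1.47 beyond 100 kb, and the groups did not overlap in any of these bands. N3ICD B and C were the high libraries near the start, while A lay between them and the GFP libraries. At the other end of the gene the pattern was flatter. In the last 1 to 5 kb before the end there were 0.484, 0.907 and 0.987 peaks per Mb with N3ICD, against 0.161, 0.302 and 0.504 with GFP (ratio 2.46, exact permutation p = 0.2), and C of the GFP libraries lay above N3ICD A. The ratio before the end was 3.37 at 5 to 20 kb, 2.18 at 20 to 100 kb and 1.60 beyond 100 kb. These positions use the 82 to 83% of N3ICD peaks inside 1 gene whose strand is in the RefSeq promoter table.

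**Figure D1:**
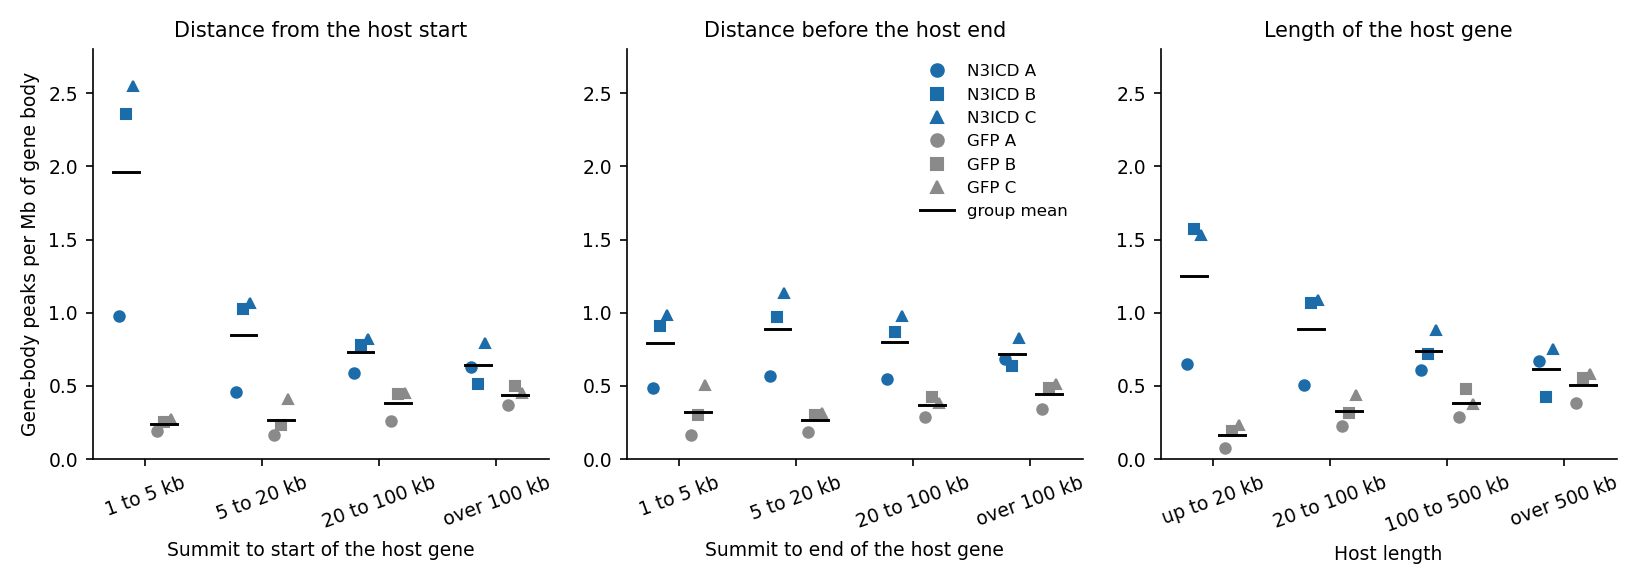
Gene-body peaks per Mb of gene body (vertical axes, linear from 0) in each ChIP library, by distance of the summit from the start of the host gene (left), by distance before its end (middle) and by host length (right). Points are libraries (N3ICD blue, GFP grey; circle A, square B, triangle C) and lines are group means; the widest gap is at 1 to 5 kb from the start, where N3ICD libraries hold 0.974 to 2.55 peaks per Mb and GFP libraries 0.195 to 0.273.

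Summits of N3ICD gene-body peaks also lay nearer to an end of their host. The median distance to the nearer end was 42.0, 20.6 and 25.5 kb with N3ICD, against 56.4, 55.1 and 49.3 kb with GFP (exact permutation p = 0.1), and the median over all gene-body bases is 38.1 kb. N3ICD A thus sat above that median, and B and C below it. The first 20% of the gene held 22.8, 27.3 and 27.5% of the N3ICD peaks, against 17.4, 15.1 and 20.0% of the GFP peaks (exact permutation p = 0.1) and 19.2% of bases. Among peaks whose −log10 q (the authors' q value, 0.05 at 1.3) was 1.3 or more the order turned, with means of 29.5% for N3ICD and 33.7% for GFP (exact permutation p = 0.6); the GFP libraries had 7, 11 and 31 such gene-body peaks in all. The last 20% of the gene held 16.7, 15.1 and 17.8% of N3ICD peaks, against 17.7, 20.4 and 17.2% of GFP peaks, which overlapped.

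Host genes differed in length in the same way. The median host of an N3ICD peak was 205, 117 and 141 kb long in A, B and C, against 283, 247 and 275 kb in the GFP libraries. Genes of up to 20 kb held 0.652, 1.57 and 1.53 N3ICD peaks per Mb, against 0.0767, 0.192 and 0.230 GFP peaks, a ratio of 7.54 (exact permutation p = 0.1). The ratio was 2.72 for genes of 20 to 100 kb and 1.93 for genes of 100 to 500 kb. In genes over 500 kb it was 1.21, with 0.670, 0.421 and 0.752 peaks per Mb for N3ICD against 0.386, 0.553 and 0.585 for GFP (exact permutation p = 0.4). In the longest genes the densities of the groups thus overlapped.

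Part of the excess inside genes stood at internal promoters. This measure was chosen after seeing the data, and chromosome 8 is left out of it because the promoter table has no entries there. Within 1 kb of a transcription start other than the outer ends used by the rule lay 36 of 708 N3ICD A peaks, 100 of 921 in B and 127 of 1075 in C. In each GFP library 2 peaks did, of 322, 495 and 499. The shares were 5.08, 10.9 and 11.8% for N3ICD, against 0.621, 0.404 and 0.401% for GFP, a ratio of 19.5 (exact permutation p = 0.1), and 1.27% of gene-body bases lie this close to such a start. All N3ICD libraries were above the share of bases and all GFP libraries below it, although the 95% Wilson intervals of the GFP shares include it. Most of these starts belonged to the host itself, 25, 75 and 106 with N3ICD, and the rest, 11, 25 and 21, to genes that are not protein coding. The authors' fold is the ratio of ChIP pileup to background at a summit, and it describes peaks within a library. Peaks at an internal start had a median fold of 3.97, 3.87 and 4.15 with N3ICD, against 3.53, 3.48 and 3.64 for other gene-body peaks of the same libraries. A q value at or beyond 1.3 on the −log10 scale was given to 8.33, 22 and 31.5% of the peaks at internal starts, against 5.80, 10.2 and 14.5% of the others. Ends of non-coding genes, starts and finishes together, had 3.39, 7.43 and 5.90% of N3ICD gene-body peaks within 1 kb, against 1.16, 1.89 and 2.28% of GFP peaks (exact permutation p = 0.1) and 2.90% of bases.

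**Figure D2:**
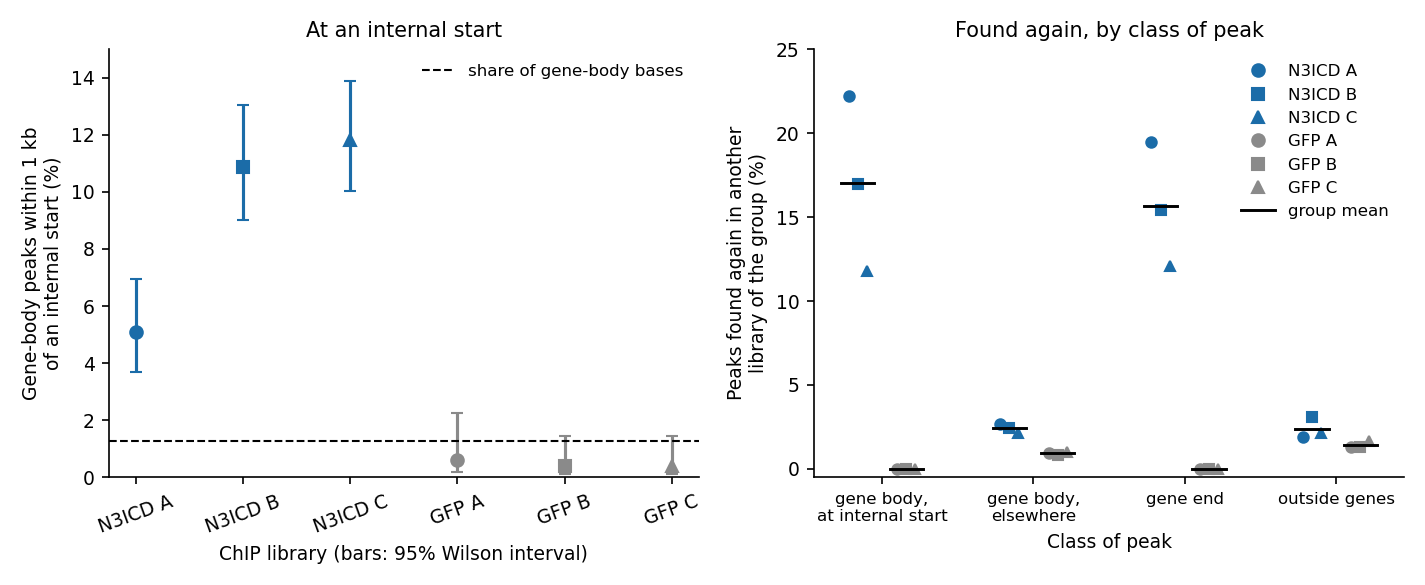
Left, share of gene-body peaks within 1 kb of an internal transcription start (%) in each ChIP library, with 95% Wilson intervals as bars (counting error only) and the share of gene-body bases, 1.27%, as a dashed line; N3ICD libraries stand at 5.08 to 11.8% and GFP libraries at 0.401 to 0.621%. Right, share of peaks found again in another library of the same group (%), by class of peak, with points for libraries and lines for group means; N3ICD gene-body peaks at an internal start were found again in 11.8 to 22.2% of cases and the others in 2.11 to 2.68%.

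Few gene-body peaks were found again in another library of the same group. A peak counted as found again when it overlapped any peak of another library by at least 1 bp. This held for 29, 39 and 39 peaks of the N3ICD libraries, or 3.93, 4.08 and 3.43%, against 3, 5 and 6 peaks of the GFP libraries, or 0.872, 0.947 and 1.14% (exact permutation p = 0.1). The N3ICD libraries lay close together and all above the GFP libraries. The difference in means of 2.83 percentage points was 1.90 without N3ICD A, 1.09 without B and 1.35 without C, where each remaining library had 1 other to be found in (exact permutation p = 0.2 each, with 2 libraries against 3), and 1.66 without peaks at internal starts. Overlap with a library of the other group was rarer, at 2, 4 and 0 N3ICD gene-body peaks. N3ICD peaks within 1 kb of a gene end were found again in 19.5, 15.4 and 12.1% of cases, and peaks outside genes in 1.92, 3.07 and 2.11%. Gene bodies thus stood between those classes in every N3ICD library (exact sign-flip permutation p = 0.25 for each contrast, the smallest that 3 libraries can give). Within gene bodies, peaks at an internal start were found again in 22.2, 17 and 11.8% of cases in A, B and C, a range like that of peaks at gene ends, and all other gene-body peaks in 2.68, 2.44 and 2.11%. Of the gene-body peaks whose −log10 q was 1.3 or more, 29.5, 14.7 and 10.8% were found again. At that threshold the shares were 28.6, 23.3 and 16.6% at gene ends and 9.46, 3.64 and 8.63% outside genes. N3ICD A thus did not keep the order of the classes there.

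Overlapping peaks formed 2773 regions with an N3ICD gene-body peak, of which 2723 had a peak in 1 N3ICD library, 39 in 2 and 11 in all 3. A recurring region is taken here as one with peaks in at least 2 N3ICD libraries and no GFP library. Of the 49 such regions, 20 were in B and C, 10 in A and C, 8 in A and B and 11 in all 3. They lie in 51 host genes of the 18725 genes long enough to have an interior (0.272%). By host length the share was 0.0905% of genes up to 20 kb (7 of 7734), 0.262% of those of 20 to 100 kb (20 of 7640), 0.659% at 100 to 500 kb (20 of 3037) and 1.27% above 500 kb (4 of 314). The recurring regions were 231 to 1907 bp wide, with a median of 527 bp. In 46 of the 49 every peak met the gene-body rule; at CCDC97, ERF and PTPN12 some peak had its summit within 1 kb of the gene end. Of the 45 regions outside chromosome 8, 20 lay within 1 kb of an internal start (44.4%, 95% Wilson interval 30.9 to 58.8%), 12 of them in B and C. Of the 40 regions whose host strand is known, 17 lay in the first 20% of the gene. At 15 recurring regions the −log10 q was 1.3 or more in at least 2 libraries, and at 19 it was under 1.3 in every library. The count of host genes was 31 without N3ICD A, 19 without B and 21 without C, since a region then needed both remaining libraries, and 29 without the peaks at internal starts.

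The 11 regions in all 3 N3ICD libraries were ranked by the mean percentile of their fold among the peaks of each library, and were headed by SULT4A1, a brain-expressed member of the sulfotransferase family. Its region, chr22:43834208-43835236, 10.5 kb from the nearer gene end, had folds of 15.4, 11.3 and 18 and pileups of 34, 33 and 39 fragments with N3ICD. This peak had the highest fold of all gene-body peaks in each N3ICD library, and its widths of 1004, 982 and 981 bp were alike. GFP libraries had no peak there, and their highest gene-body fold was 6.95, 5.90 and 5.87 in A, B and C.

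EXD3, a gene with an exonuclease domain, held the second region in that ranking, chr9:137315846-137316478, with folds of 6.19, 5.48 and 8.45 and pileups of 19, 25 and 29 with N3ICD. It lies 107 kb from the start of EXD3, 92.0% of the way along. The nearest start in the promoter table is that of NRARP, a feedback inhibitor of Notch signalling, 13885 bp from the summit. The third in the ranking was in NOTCH3, the receptor whose domain was expressed, at chr19:15195578-15195951, with folds of 4.88, 5.88 and 6.58 and pileups of 20, 15 and 12. Its summits lay 5.16, 5.20 and 5.21 kb from the start of the gene, in the first 12.4% of its length. N3ICD A alone had a further NOTCH3 peak 39.4 kb from the start, 94.0% of the way along, with a fold of 3.70. The virus carries part of the NOTCH3 coding sequence. Whether vector reads add to the NOTCH3 peaks was not tested, here or where these peaks are counted below.

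SH3KBP1, which encodes the endocytic adaptor CIN85, carried the region over the repeated TGGGAA promoter printed above (chrX:19832795-19833648), with folds of 5.28, 5.30 and 6.73 and pileups of 13, 13 and 18 with N3ICD. LMLN, a metallopeptidase gene, had folds of 6.41, 4.65 and 13.5 at chr3:198030784-198031310, 70.8 kb from its start. GUCY1B1, which encodes the beta subunit of soluble guanylate cyclase, the receptor for nitric oxide, had folds of 4.68, 4.93 and 12.5 at chr4:155759571-155760349. Its summits lay 1.12, 1.21 and 1.08 kb from the start, just inside the 1 kb limit of the rule. In LMLN and GUCY1B1 library C stood well above A and B.

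The remaining regions in all 3 libraries were weaker or uneven. PHF21B, a PHD finger gene, had folds of 6.55, 4.81 and 3.72 with N3ICD. DENND2B, a regulator of Rab GTPases, had 4.32, 4.60 and 3.64, at an internal start. HCN4, the pacemaker channel of the heart, had 4.36, 3.64 and 3.64, and ZFAT, a zinc finger gene, 4.80, 2.97 and 3.64. The values of HCN4, ZFAT and DENND2B in C equal the median of all gene-body peaks of that library, 3.64. At CCDC97 only the B peak, with a fold of 3.07, met the gene-body rule, while the stronger A and C peaks, at 11 and 12.9, had summits 999 and 980 bp from the gene end.

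**Figure D3:**
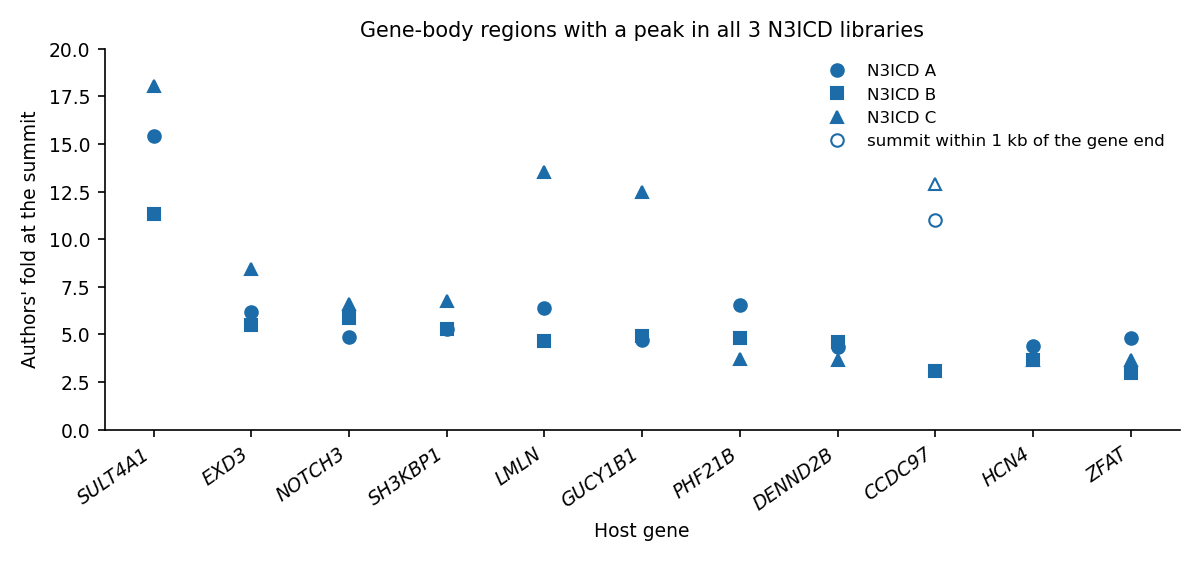
Authors' fold at the summit (vertical axis, linear from 0) for the 11 gene-body regions with a peak in all 3 N3ICD libraries, named by host gene. Filled symbols are gene-body peaks of N3ICD A (circle), B (square) and C (triangle), and open symbols are peaks whose summit lies within 1 kb of the gene end; SULT4A1 is the highest in each library, at 15.4, 11.3 and 18.

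Among Notch target genes, recurring gene-body regions lay in HEYL and NOTCH3. The target list held 25 genes with an interior, of which 2 had a recurring region, against 0.272% of all genes. HEYL, a transcriptional repressor of the HEY family, had folds of 7.70 in N3ICD A and 6.05 in C at chr1:39632857-39633551, about 40% along the gene and 6.5 kb from its start, and no peak in B or in the GFP libraries. The other HES and HEY genes of the list are short, and the rule leaves out the 1 kb at each end. Their lengths are 2.59 kb for HES1, 6.04 kb for HES7, 4.69 kb for HES2, 3.76 kb for HEY1 and 11.6 kb for HEY2. Few or no gene-body peaks in them therefore say nothing about peaks at their ends. HES1 had 1 peak, in C, with a fold of 4.62 and its summit 1.04 kb from the start. HES7 had 1 peak, in B, with a fold of 3.08. HES2, HEY1 and HEY2 had none in any library. With at least 1 N3ICD gene-body peak there were 8 of the 25 targets, against 11.8% of all 18725 genes (2215), and with a GFP peak none, against 5.62% (1053). The 8 included CCND3, a D-type cyclin, with folds of 4.65 and 3.27 in B, NR4A1, a nuclear receptor, with 6.23 in C, NOTCH1 with 4.81 in B, and PDGFRB, the PDGF receptor of mural cells, with 3.48 and 2.75 in B. The target genes have a median length of 11.6 kb, against 27.3 kb for all genes with an interior.

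Of 39 genes of the Notch pathway, 13 had an N3ICD gene-body peak, against 11.8% of all genes, and 3 a GFP peak, against 5.62%. The median length of the 39 genes is 41.3 kb, against 27.3 kb for all genes with an interior. The coactivator gene MAML2 had 3 peaks, all in C, with folds of 3.64 to 4.67, and MAML3 had 1 peak each in A and C, at 3.49 and 3.64, in different places. RBPJ itself had 1 peak in C (fold 4.48), the glycosyltransferase gene LFNG had 2 in C (3.64 and 3.14), and the ligand gene DLL4 had 1 in A (4.15). Each of these peaks was found in a single library.

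The other lists were described in the same way. Of all genes with an interior, 11.8% had an N3ICD gene-body peak, 5.62% a GFP peak and 0.272% a recurring region. Of 32 mural marker genes, 11 had an N3ICD peak, 2 a GFP peak, and 2 a recurring region, again HEYL and NOTCH3. Nitric oxide and cGMP signalling had 9 of 15 genes with an N3ICD peak, 4 with a GFP peak and 1 recurring region, in GUCY1B1; the median length of these genes is 153 kb. TGF-beta and BMP signalling had 8 of 26 with an N3ICD peak and 1 with a GFP peak, and smooth muscle genes 6 of 25 and 0, with no recurring region in either list. Among the smooth muscle genes, MRTFA, a coactivator of contractile genes, had 4 peaks, 1 in A, 2 in B and 1 in C, at separate places, with folds of 3.39 to 4.33. Extracellular matrix genes had 6 of 32 with an N3ICD peak against 2 with a GFP peak. Median lengths were 31.1 kb for the mural list, 81.3 kb for TGF-beta and BMP, 36.7 kb for smooth muscle and 77.3 kb for extracellular matrix. The median over all genes with an interior is 27.3 kb. Of neural crest genes 3 of 29 (10.3%) had an N3ICD peak, against 2 with a GFP peak. Schwann cell and neuron genes had 3 of 20 (15%) against 2, and endothelial genes 1 of 15 (6.67%) against 0. Pluripotency genes had 1 of 13 (7.69%) against 0, and housekeeping genes 2 of 24 (8.33%) against 0. None of these lists had a recurring region, and their median lengths were 12.6 to 47.1 kb. A list of very long neuronal and adhesion genes, with a median length of 1437 kb, had N3ICD peaks in 26 of 29 genes and GFP peaks in 27, and no recurring region. In the whole table, an N3ICD gene-body peak was present in 2.47% of genes up to 20 kb (191), 10.2% at 20 to 100 kb (783), 33.2% at 100 to 500 kb (1008) and 74.2% above 500 kb (233), so the share of genes with a peak was higher the longer the genes.

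Further recurring regions at internal starts are named here after their values were seen, since their promoters are printed above. LZTS2, a leucine zipper gene, had folds of 4.49 in N3ICD B and 5.71 in C, and its C peak was the widest of all N3ICD gene-body peaks, at 1698 bp. FOCAD, which encodes the focal adhesion protein focadhesin, had 4.36 in B and 5.73 in C. DNPEP, an aspartyl aminopeptidase gene, had 4.01 in B and 5.19 in C. GATAD2A, which encodes a subunit of the NuRD chromatin complex, had 3.87 in A and 5.19 in C. AADAT, an aminotransferase gene of kynurenine metabolism, had 3.87 in B and 4.30 in C. KLF12, a zinc finger repressor, had 3.97 in A and 3.87 in B. Away from internal starts, BBC3, the pro-apoptotic gene also called PUMA, had 4.65 in B and 6.75 in C at chr19:47227245-47228023, 5.5 kb from its start, and MTG1, a mitochondrial GTPase gene, had 7.18 in A and 4.30 in C. The region in NOTCH2NLB (5.42 in B and 3.19 in C) is uncertain, because that gene is a near-identical partial copy of NOTCH2.

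The 2830 peaks lay in 2215 host genes, of which 1720 had 1 peak over the 3 libraries, 495 had at least 2, 137 at least 3 and 18 at least 5. Hosts with 1 peak had a median length of 100 kb and hosts with at least 3 peaks 430 kb. The share of a library's hosts with at least 2 of its own peaks was 12.3, 7.93 and 11.4% for N3ICD, against 10.1, 8.79 and 17.3% for GFP, and the groups overlapped (exact permutation p = 0.8). Of the 356 hosts with a peak in at least 2 N3ICD libraries, 48 had a recurring region. Peaks in all 3 N3ICD libraries and no GFP library were present in 23 genes (0.123%), and in at least 2 N3ICD libraries and no GFP library in 251 (1.34%).

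DLG2, which encodes a postsynaptic scaffold, had the most, with 7, 4 and 1 peaks with N3ICD, against 4, 1 and 4 in the GFP libraries. It spans 2173 kb, its 12 N3ICD peaks fell at 12 separate sites between 1.03 and 94.6% of its length, and none recurred. PDE4D, a cAMP phosphodiesterase gene of 1553 kb, had 6 N3ICD and 4 GFP peaks. PTPRD, a receptor phosphatase gene of 2299 kb, had 6 and 5, and MGAT4C, a glycosyltransferase gene of 883 kb, had 5 and 4. Across these 4 genes the counts were thus 5 to 12 with N3ICD, against 4 to 9 with GFP.

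EXD3 had its peaks close together. Within 116 kb it had 2, 2 and 3 peaks with N3ICD and none in a GFP library. All 7 lay between 89.4 and 95.9% of its length, at 5 sites, with folds of 3.53 to 8.45. PLXND1, a semaphorin receptor gene of vessels, had 1, 2 and 2 N3ICD peaks in 51.5 kb, all in the first 24.3% of the gene, at 5 separate sites with folds of 2.93 to 4.67, and no GFP peak. SH3KBP1 had 1, 2 and 2, of which 3 formed the recurring region. ADARB2, a brain gene of the RNA editing family, had 2, 2 and 1, and 4 of these 5 lay between 497 and 501 kb from its start, against 1 GFP peak in the gene. KLF12 had 2, 1 and 2 peaks over 620 kb and 1 GFP peak. CPQ, a carboxypeptidase gene on chromosome 8, had 0, 1 and 4 at 5 sites, with folds of 3.10 to 3.82, and no GFP peak. By density, SH2D3C, an adaptor gene, led hosts with at least 4 peaks, with 9.91 peaks per 100 kb, followed by PLXND1 with 9.72, NOTCH3 with 9.53 and EXD3 with 6.02. ZNF91, a zinc finger gene of 90.5 kb, had 4 N3ICD peaks spread between 9.06 and 79.1% of its length, against 4 GFP peaks. No host had more than 1 recurring region.

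**Figure D4:**
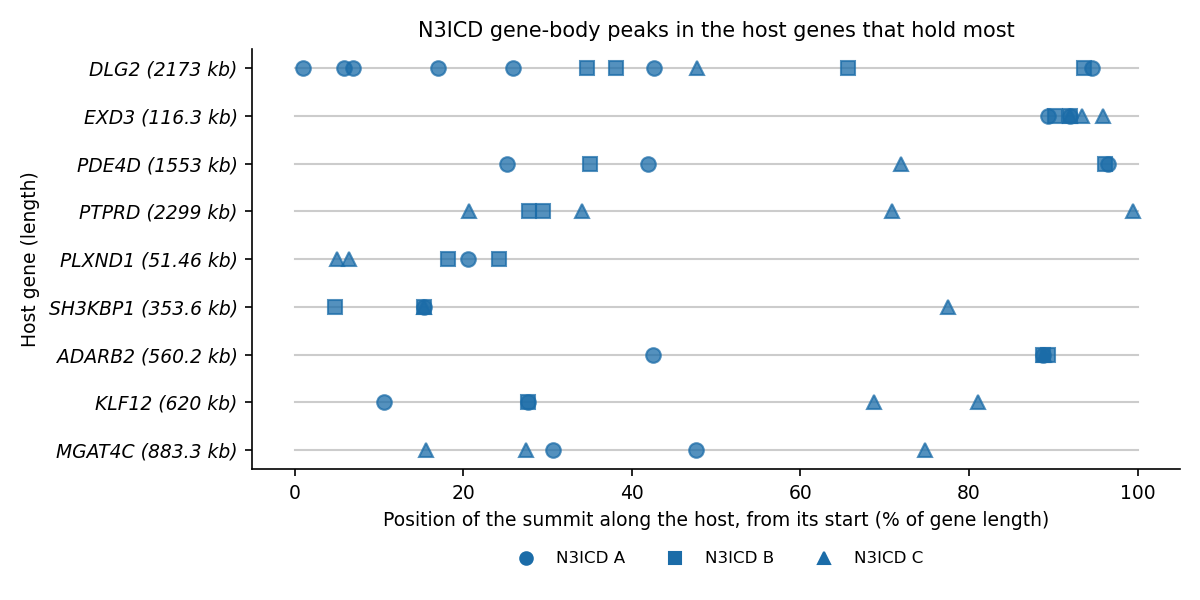
Position of each N3ICD gene-body peak summit along its host gene (horizontal axis, % of gene length from the start) for the 9 genes of known strand among the 10 with most peaks, with gene length in kb beside the name. Symbols are peaks of N3ICD A (circle), B (square) and C (triangle); peaks of DLG2 are spread over the gene, while all 7 of EXD3 lie between 89.4 and 95.9%.

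Most gene-body peaks were low and narrow in both groups. The median summit pileup was 8, 9 and 6 fragments with N3ICD, against 8, 8 and 10 with GFP (exact permutation p = 0.6). The lowest median was in N3ICD C and the highest in GFP C, which also had the lowest and highest background pileup, 0.926 and 1.90. The median width was 265, 261 and 280 bp with N3ICD, against 286, 264.5 and 282.5 bp with GFP (exact permutation p = 0.3). The median fold was 3.53, 3.48 and 3.64 with N3ICD, against 3.65, 3.63 and 3.45 with GFP (exact permutation p = 0.9). All 3 measures overlapped between the groups. The upper tail differed more, in number of peaks and in highest fold. A q value at or beyond 1.3 on the −log10 scale was given to 44, 109 and 185 gene-body peaks with N3ICD, against 7, 11 and 31 with GFP. As shares of the gene-body peaks these were 5.96, 11.4 and 16.3% with N3ICD, against 2.03, 2.08 and 5.89% with GFP. N3ICD A and GFP C thus had nearly the same share. A −log10 q of 5 or more was given to 7, 6 and 15 N3ICD peaks, against 0, 0 and 1 GFP peaks. The highest fold was 15.4, 11.3 and 18 with N3ICD, against 6.95, 5.90 and 5.87 with GFP. Over 500 bp wide were 16 of 738, 17 of 956 and 61 of 1136 N3ICD gene-body peaks. In the GFP libraries these numbers were 3 of 344, 8 of 528 and 12 of 526. As a share, GFP C lay above N3ICD A and B, so the groups overlapped.

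**Figure D5:**
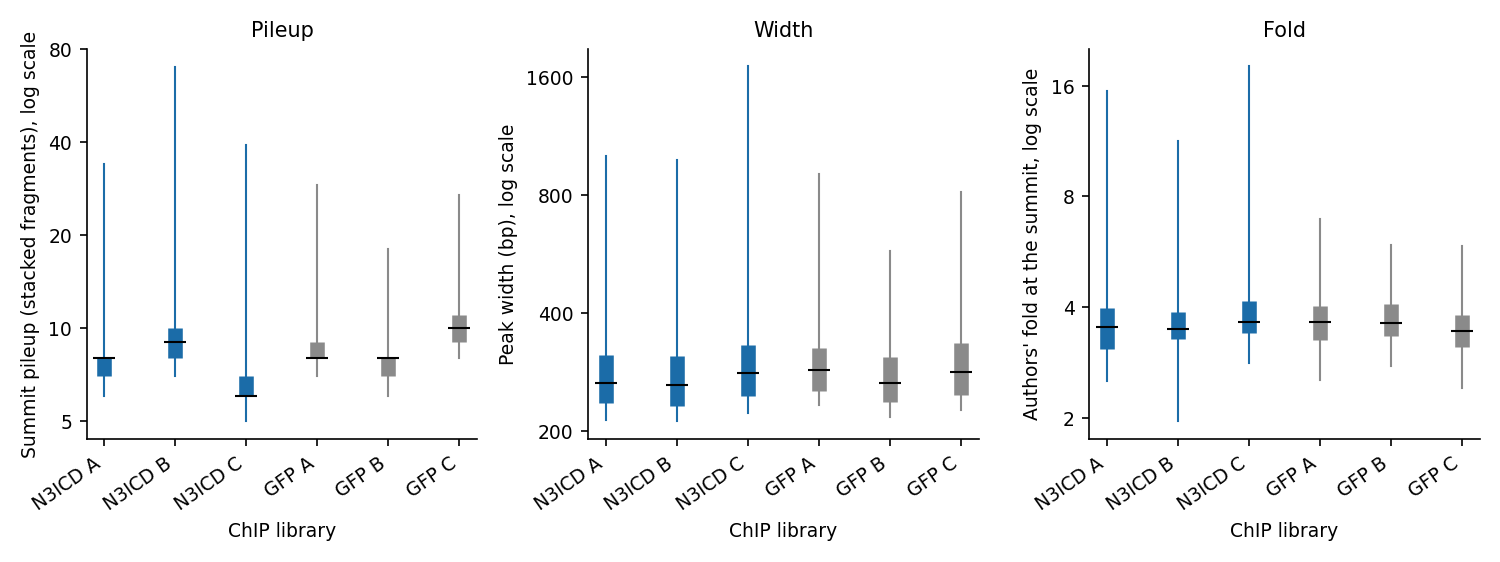
Summit pileup (stacked fragments), peak width (bp) and the authors' fold of gene-body peaks in each ChIP library, all on log axes. Thin lines run from the lowest to the highest peak, thick bars cover the middle quartiles and black marks are medians; medians overlap between groups, while the highest folds are 11.3 to 18 in N3ICD libraries and 5.87 to 6.95 in GFP libraries.

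Compared with the peaks at gene ends in the same libraries, N3ICD gene-body peaks had a lower fold and were narrower. Their median fold was 3.53, 3.48 and 3.64 in A, B and C, against 3.72, 3.87 and 4.15 at gene ends, a mean difference of −0.36. Their median width was 24.2 bp less on average, with gene ends at 286, 285.5 and 307 bp. Both differences had the same sign in 3 of 3 libraries (exact sign-flip permutation p = 0.25). The median pileup differed from that at gene ends by 0, 0 and −1 fragments (exact sign-flip permutation p = 1). Against peaks outside genes the medians of fold and pileup were equal in each N3ICD library, and the width differed by −3, −5 and −1 bp. Pileups are whole numbers, and the most frequent value held 30.9, 26.9 and 36.2% of gene-body peaks in A, B and C. Equal medians are therefore a coarse comparison.

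The extremes of pileup and width named further genes. The 5 highest pileups in N3ICD A were at SULT4A1 (34), MTG1 (22), NOTCH3 (20), EXD3 (19) and the downstream NOTCH3 peak (19). In C the 4 highest were at SULT4A1 (39), EXD3 (29), LMLN (25) and GUCY1B1 (23). In B the highest pileup, 70 at LRRC27, a leucine-rich repeat gene, came with a fold of 1.96, the lowest of the library, and EML1, a microtubule-associated protein gene, had 27 with a fold of 2.44, so these summits stood on a high local background. SULT4A1 (33), EXD3 (25) and TCF20 (24), a transcriptional coregulator gene, completed the 5 of B. Wide peaks of a single library lay in MAD1L1, a spindle checkpoint gene (894 bp, fold 6.98, A), LURAP1L (836 bp, A), MIDN (777 bp, fold 6.03, B), RASA3, a Ras regulator gene (697 bp, fold 5.81, B), KDM4C, a histone demethylase gene (674 bp, B), ZMAT4 (914 bp, C), MDFI (838 bp, C) and KCTD1 (832 bp, C).

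Recurrence among the GFP libraries was lower. There were 7 gene-body regions with peaks in at least 2 GFP libraries. The matching N3ICD counts were 39 regions in 2 libraries and 11 in 3, whether or not the other group had a peak. The GFP libraries also had fewer gene-body peaks that could overlap, 1398 against 2830. Of the 7 GFP regions, 2 also had an N3ICD peak. The first was in TMEM114, with a fold of 3.66 in N3ICD B, against 6.95 in GFP A and 4.54 in GFP C. The second was in MRPS9, a mitochondrial ribosomal protein gene, with 3.97 in N3ICD A, against 3.63 in GFP B and 3.05 in GFP C. PDE3B, ZNF727 and TSNARE1 were among the other hosts.

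Peaks just inside and just outside the 1 kb limit were close in fold in B and C. Summits 1 to 1.5 kb from a gene end numbered 23, 49 and 69 with N3ICD, with median folds of 3.77, 3.70 and 3.64. Summits 0.5 to 1 kb from an end numbered 26, 87 and 113, with median folds of 3.53, 3.70 and 3.66.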

How the data were processed

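Notch3 ChIP-seq peak lists of 6 libraries were analysed. The submitters' processing notes name hg38, MACS3 3.0.0a7, Bowtie2 2.2.1, deepTools 3.5.1, bedtools 2.30.0 and SAMtools 1.11; neither options nor the control of a peak call are given in the sources used here. Per the labels' protocols, chromatin was fixed in 1% formaldehyde and digested with an enzyme; a peak can also reflect how readily the enzyme cuts a site, which was not tested without the inputs. Peaks were called in each library separately. The fold deposited by the authors is a ratio of pileup to background at the summit. The −log10 p and q values are those deposited by the authors. The signal is the deposited summit pileup, in stacked fragments, and the table that holds it gave the same values as the lists for all 12583 peaks.

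Positions are 1-based. Gene spans came from the RefSeq table of GRCh38.p14, with 19974 protein-coding genes on chromosomes 1 to 22 and X, and strand from the RefSeq promoter table, for 15812 of them (79.2%). Exons, introns and UTRs are not stated, and no sequence of the peaks themselves was read. Shares of bases were computed on a 500 bp grid. Regions are merged peaks that overlap by 1 bp or more. Groups were compared by two-sided exact permutation over libraries, which may reflect culture or technical spread, and classes within a library by exact sign flips. Wilson intervals are at 95% and, like counts, cover counting error only. Named genes follow a rule: up to 20 regions in all 3 N3ICD libraries, the 10 hosts with most peaks, list genes with a recurring region, the 5 highest and 5 widest peaks of each N3ICD library, up to 5 GFP regions, and NOTCH3, HES and HEY genes; others were named after their values were seen, and some genes that meet the rule are not reported here. Members and the 13 gene lists were chosen with earlier results of these data known. Alternatives covered the distance to gene ends, the q threshold, list size, overlap, host choice and left-out libraries. The scripts were tested on simulated data. Software was Python 3.11.15 with matplotlib 3.10.9, SciPy 1.17.1, pandas 2.3.3 and numpy 2.4.6.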

Additional observations from a re-analysis of the deposited data

Results flagged for a closer look

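The contrast between gene-body peaks and peaks at gene ends had opposite signs in the libraries of the groups. The share found again in another library of the group was lower in gene bodies by 15.6, 11.4 and 8.67 percentage points with N3ICD, a mean difference of −11.9 points. It was −8.48 points without N3ICD A, −6.71 without B and −4.12 without C, and 0.93 among peaks whose −log10 q was 1.3 or more. In the GFP libraries it was higher by 0.872, 0.947 and 1.14 points (mean 0.987), where none of the 12, 18 and 26 peaks at gene ends was found again. A count of 0 among so few peaks allows shares of up to 24.2, 17.6 and 12.9% (95% Wilson), so the sign in the GFP libraries is not established. The difference between the groups had an exact permutation p of 0.1, the smallest possible with 3 libraries each.

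The contrast with peaks outside genes also took opposite signs. Gene-body peaks were found again more often than peaks outside genes by 2.01, 1.01 and 1.32 points with N3ICD (mean 1.45), and by 1.16 without A, 0.859 without B and 0.911 without C. In the GFP libraries the difference was −0.422, −0.371 and −0.504 points (mean −0.433; exact permutation p = 0.1). The causes were not tested.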

How the results depend on the processing

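Of 243 alternative values, 214 kept their direction or stayed within the allowed range, 15 moved and 14 changed sign. No value could cross the threshold of 0.05, because the smallest possible exact permutation p is 0.1. A main difference of 0, as for fold and pileup against peaks outside genes, could not be counted as changing sign. The 214 thus do not measure how firm the results are. With gene ends drawn at 5 kb, the share of peaks in gene bodies differed by −0.022 points (28.7% with N3ICD, 28.8% with GFP). From a −log10 q of 1.3 upwards, differences of N3ICD minus GFP were 96.3 gene-body peaks, 93.0 host genes, −1.67 points for the share in gene bodies, −4.24 points for the first 20% of the gene, 2.78 points for hosts with at least 2 peaks and 18 bp for width; gene-body peaks were 6.83 bp wider than peaks outside genes and were found again 0.93 points more often than peaks at gene ends; 14 genes had a recurring region. From a −log10 q of 5 upwards the differences were 9 peaks, 8.67 host genes, 948.5 bp to the nearer end, 2.38 points for hosts with at least 2 peaks and 1.07 in fold, and 3 genes recurred; GFP libraries without such peaks gave no median or share, so these had no test. With equal numbers of peaks the differences were 18.7 peaks, 45.3 host genes and 0.46 in fold, with 28 recurring genes. The recurring genes numbered 29 with a reciprocal overlap of 50%, 11 when all 3 libraries were required and, chosen after seeing the data, 29 without peaks at internal starts. The cause of these changes was not tested. Smaller lists leave fewer peaks to overlap, and this was not separated from other causes.

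Leaving out 1 library at a time gave differences of 381 to 580 gene-body peaks, 374 to 552 host genes, 2.07 to 5.36 points in gene bodies, −30557 to −19859 bp to the nearer end, 7.14 to 9.87 points in the first 20% of the gene, 1.09 to 3.57 points found again, 7.50 to 10.9 points at internal starts, 2.86 to 4.88 points at ends of non-coding genes, −3.13 to 1.12 points for hosts with at least 2 peaks (1.12 without GFP C), −1.67 to −0.167 in pileup, −15.6 to −4.83 bp in width and −0.093 to 0.0089 in fold (0.0032 without N3ICD B and 0.0089 without GFP A). For N3ICD gene-body peaks against those at gene ends the share found again differed by −8.48 to −4.12 points, and against peaks outside genes by 0.859 to 1.16 points. Recurring genes numbered 19 to 52.

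Whether the replicate letters pair the samples is not known. N3ICD and GFP libraries of the same letter had correlations of −0.065, 0.0012 and −0.029 over 160 bins of 20 Mb. Those of different letters had −0.181 to 0.176, also around 0, so bins this coarse can neither show nor exclude a pairing. With the letter as a replicate block, differences were the same, such as 477 gene-body peaks and 2.83 points found again, at an exact permutation p of 0.25, the smallest that 3 pairs give; p was 0.75 for hosts with at least 2 peaks and 1 for pileup and for fold. The median gene-body peak rests on 6 to 10 stacked fragments; how depth limits the calls was not tested, since read totals are not given in the sources used here.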
